A study of Homo sapiens with 4 samples.

Results

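REST and 9 genes for the proteins it works with make up the set described here, 10 of the 20037 protein-coding genes on the assembled chromosomes. They are REST itself, the CoREST genes RCOR1, RCOR2 and RCOR3, the scaffold gene SIN3A, the deacetylase genes HDAC1 and HDAC2, the demethylase gene KDM1A, the methyltransferase gene EHMT2 and the phosphatase gene CTDSP1. The genes were chosen by name with results of these data in view, and every called SPIB peak with its summit in the gene span or within 5 kb of it was taken. How many of them hold a peak is therefore a description and carries no test.

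The peaks come from chromatin immunoprecipitation with sequencing (ChIP-seq) of SPIB, an ETS-family transcription factor of B cells and plasmacytoid dendritic cells, in H1703, an established human lung squamous carcinoma line. All 4 libraries were made from cells that overexpress SPIB, and both ChIP libraries used the anti-FLAG M2 antibody. They are 1 ChIP and 1 input library of suspended cells and 1 ChIP and 1 input library of attached cells, where input is sonicated DNA that was not immunoprecipitated. The treatment label names 24 h of suspension for every library, so suspended and attached were taken from titles and condition labels. With 1 ChIP library per condition there is no replicate check, and no p-value between conditions is given. Whether expression of these genes changed was not measured. The suspended ChIP library held 20766909 filtered tags (sequenced ends kept once per position), and the attached one held 21108364. The inputs held 21437074 filtered tags for suspended cells and 15878452 for attached cells. The authors called 9024 peaks in suspended and 462 in attached cells.

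REST is a zinc finger repressor that binds a long DNA element known as RE1 and keeps genes of neurons silent in other tissues. Its C-terminal end recruits CoREST, which brings KDM1A and the deacetylases to the site, and its N-terminal end recruits SIN3A, which brings deacetylases too. EHMT2 adds repressive methyl marks to histones at REST sites, and CTDSP1 removes phosphate from RNA polymerase and from REST itself.

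A peak was called at 7 of the 10 genes in suspended cells (70.0%, Clopper-Pearson 95% interval 34.8 to 93.3) and at 0 of 10 in attached cells (upper bound 30.8%). Of all protein-coding genes 28.6% had one in suspended cells and 1.86% in attached cells. Because the 10 genes were chosen with results in view, their interval covers counting error only and does not test them against these shares. Longer genes have more room for a peak, and 7 of the 10 genes were longer than the protein-coding median of 24115 bp. Among the 12279 protein-coding genes whose span lies between those of the shortest and longest of the 10 (9591 to 137913 bp), 30.2% had such a peak in suspended and 1.73% in attached cells. REST, RCOR1, RCOR2, RCOR3, SIN3A, HDAC2 and CTDSP1 each had a single suspended peak. HDAC1, KDM1A and EHMT2 had none.

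**Figure D1:**
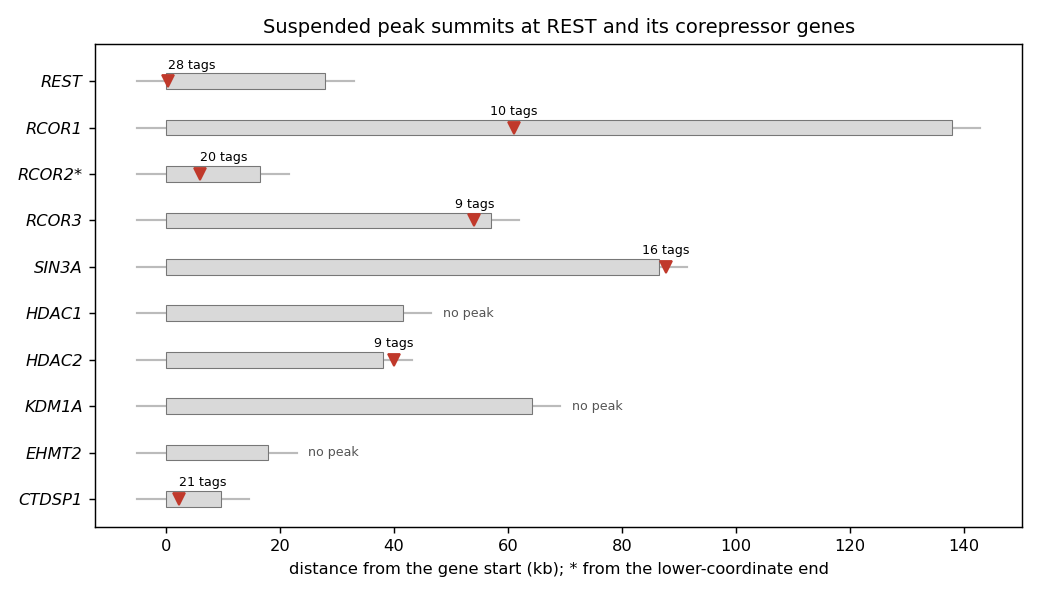
Position of called suspended peaks (red triangles, with their ChIP tags) along the 10 genes, in kb from the gene start. Grey bars are gene spans and thin lines the 5 kb on each side. The start of RCOR2 was not in the promoter table, so it runs from its lower-coordinate end. The REST peak lies at the start of its gene, those of SIN3A and HDAC2 lie beyond the far end, and 3 genes have no peak.

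The REST peak was the strongest of the 7 and the one at a gene end. REST (gene ID 5978) spans chromosome 4, 56907900 to 56935844 (hg38). The suspended peak covered 56908112 to 56908488, a width of 377 bp, and held 28 tags (95% Poisson interval 18.6 to 40.5). The authors' fold enrichment over the local background was 14.34 and their false discovery rate (FDR) was 0.2%. By the authors' score, which is minus 10 times log10 of the peak caller's p-value, it ranked 500 of 9024. No attached peak was called there, and the nearest attached peak lay 5800542 bp from the gene. The peak list holds no tag count at uncalled sites, so an attached level at REST cannot be given.

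The REST summit fell between both starts that RefSeq lists for the gene, 413 bp after the outer one. The 300-base promoter windows (250 bases before a start and 50 after it) ended 163 bp before the called peak and began 172 bp after it. The second window is shown because it is the one next to the peak with ETS-like letters. Capitals mark CCGGAAG, the core of broad ETS sites, and GGACAGC, the right arm of RE1, on either strand. RefSeq, GRCh38.p14, plus strand, chr4:56908660-56908959.
REST: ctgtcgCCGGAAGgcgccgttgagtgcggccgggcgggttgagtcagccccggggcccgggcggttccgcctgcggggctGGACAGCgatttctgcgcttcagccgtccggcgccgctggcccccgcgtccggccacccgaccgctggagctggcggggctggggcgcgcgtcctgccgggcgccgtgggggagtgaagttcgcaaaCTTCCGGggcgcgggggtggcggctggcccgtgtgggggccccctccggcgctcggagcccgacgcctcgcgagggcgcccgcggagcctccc
The letters CCGGAAG occur in it on both strands, and in 10.3% of all 35116 promoter windows. GGACAGC occurs in 6.03% of all windows. The closest of these matches lay 356 bp from the summit, outside the called peak. The first REST window held none of the letters searched.

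The CoREST scaffolds each had 1 weak suspended peak inside the gene. The distance of the RCOR2 summit from a start was not measured, since no start of it was in the table. RCOR1 encodes CoREST, the protein that links REST to KDM1A. It spans chromosome 14, 102592649 to 102730561, and its peak at 102653594 to 102653787 held 10 tags (4.80 to 18.4) at a fold of 9.54 and an FDR of 5.57%. That summit was 61005 bp from the listed start. RCOR2, a CoREST relative, spans chromosome 11, 63911230 to 63927762, and its peak at 63917076 to 63917400 held 20 tags (12.2 to 30.9). Its fold of 6.09 was the lowest of the 7 peaks, and its FDR was 6.31%. RCOR3 spans chromosome 1, 211259366 to 211316385, and its peak at 211313416 to 211313588 held 9 tags (4.12 to 17.1) at a fold of 12.74 and an FDR of 4.96%. The RCOR3 summit lay 2912 bp before the end of the gene span. RCOR2 (50.39) and RCOR1 (52.08) had the lowest scores of the set, and at an FDR of at most 5% neither would be counted.

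SIN3A, the scaffold of the second corepressor complex, spans chromosome 15, 75369379 to 75455815, and is read toward lower coordinates. Its peak at 75367982 to 75368216 held 16 tags (9.15 to 26.0), with a fold of 12.02 and an FDR of 1.81%. The summit lay 1234 bp beyond the downstream end of SIN3A and 462 bp after a listed start of the neighbour MAN2C1. Position alone does not tell which gene the peak belongs to, and at SIN3A's own listed starts, 83545 bp away or more, no peak was called.

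The deacetylase genes differed in whether they had a peak. HDAC2 spans chromosome 6, 113933028 to 113971148, also read toward lower coordinates. Its peak at 113931075 to 113931225 was the narrowest of the 7, at 151 bp, and held 9 tags (4.12 to 17.1) at a fold of 12.29 and an FDR of 2.73%. This summit lay 1863 bp beyond the downstream end of HDAC2, the farthest outside a gene of the 7 and still within the 5 kb limit. HDAC1, on chromosome 1 from 32292083 to 32333626, had no peak, and the nearest suspended one lay 69235 bp away near TMEM234 and EIF3I, with 31 tags.

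KDM1A and EHMT2, the histone demethylase and methyltransferase of the set, had no called peak. KDM1A spans chromosome 1, 23019468 to 23083689, and the nearest suspended peak lay 42872 bp away near LACTBL1, with 15 tags. EHMT2 spans chromosome 6, 31879759 to 31897698, inside the major histocompatibility region. No suspended peak was called from 28489561 to 33547673, a stretch of 5.06 Mb around EHMT2 that holds 172 protein-coding genes. No attached peak lay there either. No other stretch between neighbouring suspended summits on an assembled chromosome held more protein-coding genes. The missing call at EHMT2 is thus shared by its whole neighbourhood and does not show that EHMT2 is unbound. The suspended list also holds 14 peaks on alternate contigs (second copies of some regions in the assembly), 1 of them of chromosome 6, and the attached list holds 1. The part of such copies in the empty stretch was not tested. The stretches without a suspended peak around HDAC1 (0.429 Mb, 10 protein-coding genes) and KDM1A (0.238 Mb, 3 genes) were shorter. Without EHMT2, which was set aside after its values were seen, 7 of 9 genes had a suspended peak and 0 an attached one.

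CTDSP1 encodes a small phosphatase of the RNA polymerase tail and is the shortest gene of the set. It spans chromosome 2, 218396351 to 218405941. Its suspended peak at 218398482 to 218398808 held 21 tags (13.0 to 32.1), with a fold of 8.3 and an FDR of 1.22%. RefSeq lists 7 starts for CTDSP1, and the summit lay 2300 bp after the outermost and 91 bp before another. Of the 18 promoter windows found for 9 of the genes (RCOR2 was not in the table), the one at that inner start was alone in being overlapped by a called peak. Among all promoter windows 6.09% were overlapped by a suspended peak and 0.285% by an attached one. The window is shown because the peak covers it. Capitals mark GAGGAA, the purine-rich core of sites for SPIB and its relative PU.1. RefSeq, GRCh38.p14, plus strand, chr2:218398492-218398791.
CTDSP1: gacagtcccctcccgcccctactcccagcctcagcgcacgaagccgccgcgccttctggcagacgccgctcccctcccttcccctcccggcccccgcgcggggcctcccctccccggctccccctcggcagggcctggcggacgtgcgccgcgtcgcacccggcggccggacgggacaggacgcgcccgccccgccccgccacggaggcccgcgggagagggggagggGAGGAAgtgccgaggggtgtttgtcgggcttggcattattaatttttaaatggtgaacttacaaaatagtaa
The single GAGGAA lay 71 bp from the summit. These letters occur on either strand in 27.9% of all windows, so a match by itself is common. They were found in at least 1 window of 4 of the 9 genes (HDAC1, HDAC2, KDM1A and CTDSP1), of which HDAC1 and KDM1A had no peak.

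The CTDSP1 summit also lay 3995 bp from the MIR26B hairpin, a microRNA gene inside CTDSP1, and within 5 kb of SLC11A1. In zebrafish miR-26b is known to repress a relative of CTDSP1. Its main mature strand is shown with the seed (bases 2 to 8) in capitals, from RefSeq, GRCh38.p14, plus strand, chr2:218402657-218402677.
hsa-miR-26b-5p: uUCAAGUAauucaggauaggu
The peak was far nearer to the inner CTDSP1 start than to this hairpin.

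As a group the 7 peaks resembled the suspended list they came from. Their tags ran from 9 to 28 with a median of 16, against 15 over all 9024 peaks. Their median width was 235 bp, against 252 bp. Their median fold was 12.02, against 9.1, and 5 of the 7 lay above that list median. Their median score was 63.37, against 59.12, and 4 lay above it. At an FDR of at most 5% 5 of the 7 remained (REST, RCOR3, SIN3A, HDAC2 and CTDSP1), against 76.8% of the list. None of the 7 was among the top 5% of the suspended list by score. Per length the peaks were close to each other, from 5.15 tags per 100 bp at RCOR1 to 7.43 at REST, against a list median of 5.74.

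**Figure D2:**
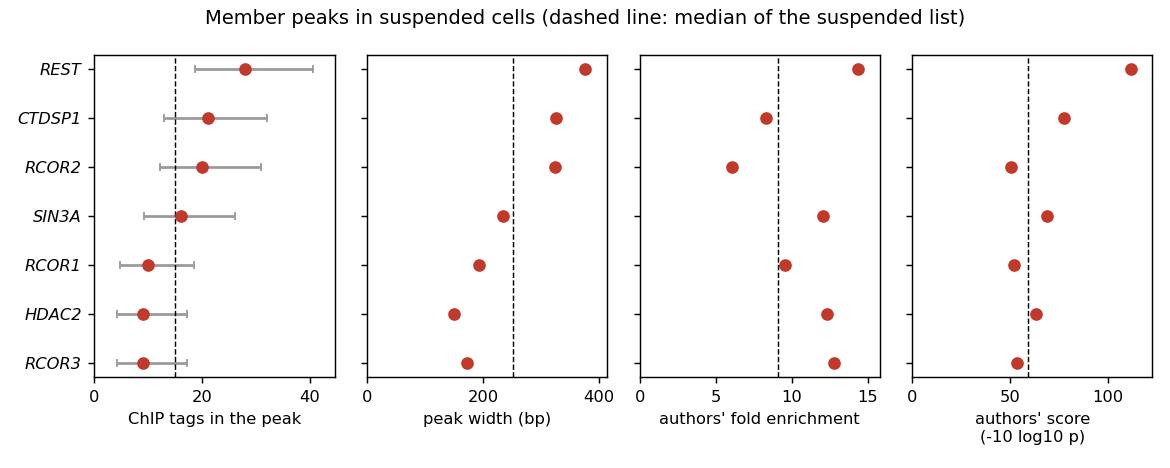
ChIP tags (bars are 95% Poisson intervals), peak width in bp, the authors' fold enrichment and the authors' score for the 7 suspended peaks, ordered by tags. Dashed lines are the medians over all 9024 suspended peaks. REST is highest in all 4 panels, and the order by tags is not the order by fold: RCOR2 has more tags than SIN3A and the lowest fold.

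Ordered by tags, the genes ran REST (28), CTDSP1 (21), RCOR2 (20), SIN3A (16), RCOR1 (10), and HDAC2 and RCOR3 (9 each). No neighbours in that order differed beyond counting error: the widest step, from SIN3A to RCOR1, was a ratio of 1.60 with an exact interval of 0.683 to 3.94. The ends of the order were farther apart, with 3.11 times as many tags at REST as at RCOR3 (1.43 to 7.49). The REST peak was also wider than the RCOR3 peak, 377 against 173 bp, so these tag counts do not cover equal lengths.

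Just outside the 5 kb limit lay a second suspended peak near RCOR1, 8525 bp beyond its span, with 11 tags and a fold of 12.14. The next nearest was 28072 bp from SIN3A. The nearest attached peaks were all far away, from 179241 bp at CTDSP1 to 5883760 bp at RCOR1. The attached list was called against a smaller input and at higher folds, with a median of 15.33. Of its 462 peaks 42.4% had a fold at or below the 14.34 of REST, against 91.1% of the suspended list. In the attached list 305 peaks had an FDR of 100%. A gene without an attached peak is therefore not shown to be unbound in attached cells.

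The set was then described by distance to gene ends. In suspended cells REST was the 1 gene of 10 with a summit at most 1 kb from an end of its span, and in attached cells there was none. Over all protein-coding genes the shares were 13.8% in suspended and 0.809% in attached cells. Of the other 6 suspended summits 4 lay inside the gene and 2 beyond its downstream end.

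Other genes of the same complexes were counted from a list of 37, chosen with earlier results of these data known. In suspended cells 28 of them (75.7%, 58.8 to 88.2) held a called summit in or around the gene by the same 5 kb rule. In attached cells 2 did (5.41%, 0.661 to 18.2). Of all protein-coding genes 28.6% had one in suspended and 1.86% in attached cells, the latter inside the attached interval. The 37 genes are long, with a median span of 75322 bp, and 10 exceed the longest of REST and its corepressors. A summit lay within 1 kb of a gene end for 13 in suspended cells (35.1%, against 13.8% of all protein-coding genes). They were the CoREST complex genes HMG20B, PHF21A and ZMYM3 and the SIN3 complex genes SIN3B, RBBP4, ING1, ING2, ARID4A and ARID4B. The others were the CTDSP1 relative CTDSP2, SKP1 and CUL1 of the ubiquitin ligase that marks REST for breakdown, and SRRM3. At ARID4B the summits near that end also lay 11 and 89 bp before a listed start of GGPS1. Position alone does not tell which gene such a peak belongs to. The SIN3B peak, with 13 tags (6.92 to 22.2) at a fold of 8.82, lay 259 bp from an end of its gene span. The summit at its relative SIN3A lay farther from a span end, at 1234 bp. Neither summit lay within 5 kb of a listed start of its own gene. CTDSP2 had 20 tags (12.2 to 30.9) at a fold of 7.65 in a peak 253 bp after its start, and a second peak of 12 tags further in. The histone reader gene ING2 had 33 tags (22.7 to 46.3) at a fold of 12.66 in a peak 221 bp after its start. SRRM3 had the highest fold of all the complex genes (29.02). Outside the 13 genes with a summit at an end, the highest folds lay in SRRM4 (18.43), a neural splicing factor gene whose product makes a truncated REST, PRICKLE1 (16.39), whose product carries REST into the nucleus, SAP130 (14.75), and HTT (13.99), whose product holds REST in the cytoplasm. Genes with no peak included ZMYM2, SAP18, SAP30, SUDS3, RBBP7, BRMS1, SMARCC2 and BTRC.

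SRRM3 and USP7 were the 2 complex genes with an attached peak, and both were called at the same site in suspended cells. SRRM3, a splicing factor related to SRRM4, had 40 tags (28.6 to 54.5) in suspended cells and 23 tags (14.6 to 34.5) in attached cells. Divided by the filtered ChIP tags of each library, the ratio of suspended to attached was 1.77 (exact interval 1.03 to 3.09), and per bp of called peak it was 1.19, because the suspended peak was wider (440 against 295 bp). The attached FDR there was 41.58%. USP7, a deubiquitinase that protects REST, had 15 tags (8.40 to 24.7) in suspended cells and 17 tags (9.90 to 27.2) in attached cells, a ratio of 0.897 (0.417 to 1.91). At USP7 the attached FDR was 100%. The SRRM3 window is shown because its peak was called in both conditions across the start. Capitals mark GAGGAA as well as both arms of RE1, GGACAGC (right) and CAGCACC (left), on either strand. RefSeq, GRCh38.p14, plus strand, chr7:76201646-76201945.
SRRM3: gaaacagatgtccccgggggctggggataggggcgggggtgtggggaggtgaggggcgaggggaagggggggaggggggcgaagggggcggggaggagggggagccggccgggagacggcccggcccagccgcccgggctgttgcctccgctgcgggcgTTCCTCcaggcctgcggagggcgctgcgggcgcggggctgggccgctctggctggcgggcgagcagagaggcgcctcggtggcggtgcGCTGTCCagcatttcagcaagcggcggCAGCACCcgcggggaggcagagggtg
Both RE1 arms occur in it, on opposite strands, and the closest match to the suspended summit lay 15 bp away.

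**Figure D3:**
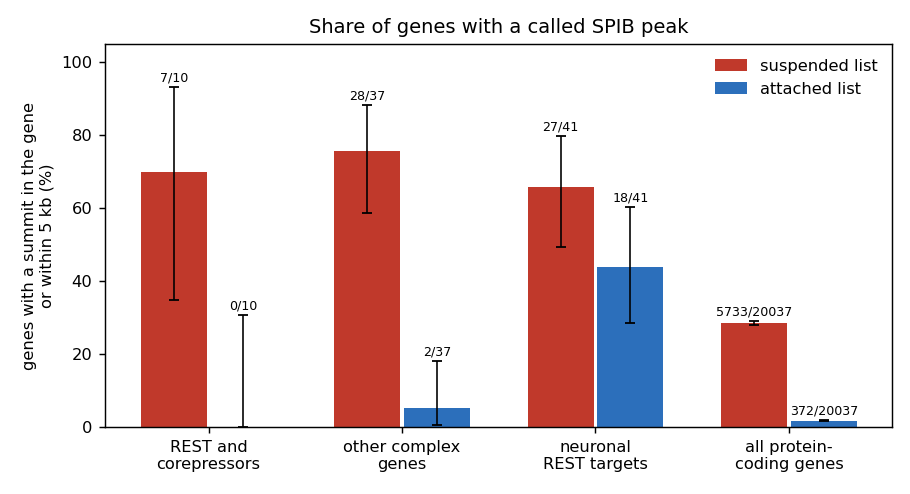
Share of genes (percent) with a called summit inside it or at most 5 kb away, in suspended (red) and attached (blue) cells, with exact 95% intervals and counts. REST and its corepressors have 7 of 10 and 0 of 10, other genes of the complexes 28 of 37 and 2 of 37, neuronal REST targets 27 of 41 and 18 of 41, and all protein-coding genes 5733 and 372 of 20037.

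Genes known as REST targets in neurons had peaks in both conditions. Of 41 such genes 27 had a suspended peak (65.9%, 49.4 to 79.9) and 18 an attached one (43.9%, 28.5 to 60.3). Over all protein-coding genes these shares were 28.6% and 1.86%. The 41 genes had a median span of 38465 bp, against 24115 bp, and 7 were longer than the longest of REST and its corepressors. A peak counted here can also lie at a neighbour: the SYP summit was 2690 bp beyond SYP and 232 bp before a listed start of PRICKLE3. The attached 0 of 10 at REST and its corepressors (upper bound 30.8%) lay near the attached share of all genes. At an FDR of at most 5% the attached count was 3 of 41, and the share of all genes at that limit was not computed. The list of 41 holds 7 genes that an earlier account of these data already named for their peaks (SNAP25, L1CAM, NPAS4, SHANK2, SCRT1, UNC5A and HS3ST2). It is therefore not independent of these libraries. Without those 7 the counts were 20 of 34 in suspended (58.8%) and 11 of 34 in attached cells (32.4%). These 34 genes were also listed with earlier results of these data known, so they are no independent check. The other 11 with an attached peak included the granin-type genes CHGB, SCG3 and VGF, the vesicle gene SYT7, the growth factor gene BDNF, CELSR3, the scaffold genes MAPK8IP1 and MAPK8IP2, the neurofilament-type gene INA and the hormone gene CRH. Of the 44 suspended peaks at these genes 21 were among the top 5% of the list by score, against 0 of the 7 at REST and its corepressors. Their median score was 98.02, against 63.37. Without the 7 genes named earlier 13 of 32 peaks were in that top share, and the median score was 82.72. Genes with a peak in neither list included SCN2A, STMN2, CHGA, SCG2, SYT4, GRIA2, CHRNB2, RUNDC3A, GDAP1L1, OPRM1, PCSK1 and PCSK2.

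**Figure D4:**
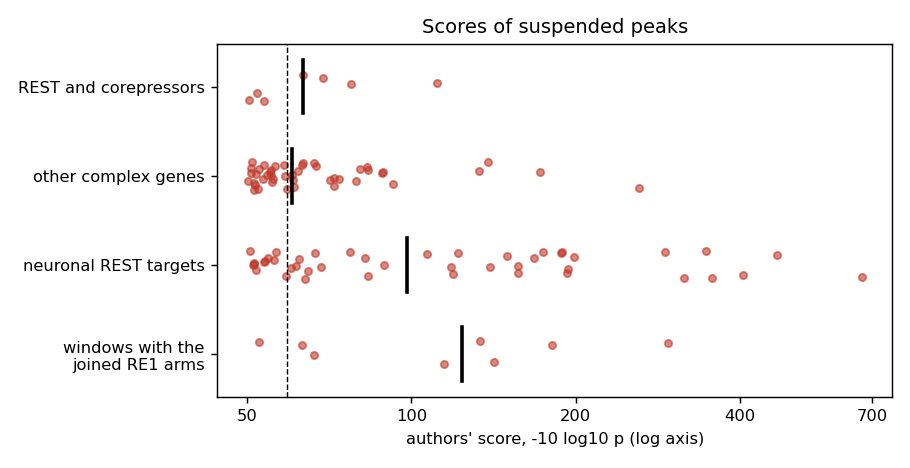
Authors' score (minus 10 times log10 p, log axis) of suspended peaks at REST and its corepressors, other genes of the complexes, neuronal REST targets, and promoter windows that hold the RE1 arms joined with 2 bases between them (8 peaks). Black bars are medians (63.37, 60.51, 98.02 and 124.0), and the dashed line is the median of all suspended peaks, 59.12.

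At 17 sites of these target genes a peak was called in both conditions, and summits lay at most 42 bp apart. That is 38.6% of their suspended peaks (31.2% without the 7 genes named earlier), against 2.35% of the whole suspended list. The depth-scaled ratio of tags, suspended to attached, had a median of 1.48 and ran from 0.986 at CRH to 2.54 at SNAP25. It was above 1 at 16 sites, and its exact interval lay above 1 at 8. The ratio was not computed for shared sites outside these lists, so it is not shown to be particular to REST targets. Without the 7 genes named earlier the median over 10 sites was also 1.48, and the interval lay above 1 at 3. The suspended peak was the wider at 14 sites, and per bp the median ratio was 1.31, above 1 at 12. CELSR3 had 44 tags (32.0 to 59.1) in suspended and 18 (10.7 to 28.4) in attached cells, a ratio of 2.48 (1.41 to 4.57). SCG3 had 22 tags in each (13.8 to 33.3), a ratio of 1.02 (0.537 to 1.92). At 5 of the 17 sites the attached FDR was 100%, SCG3 among them.

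**Figure D5:**
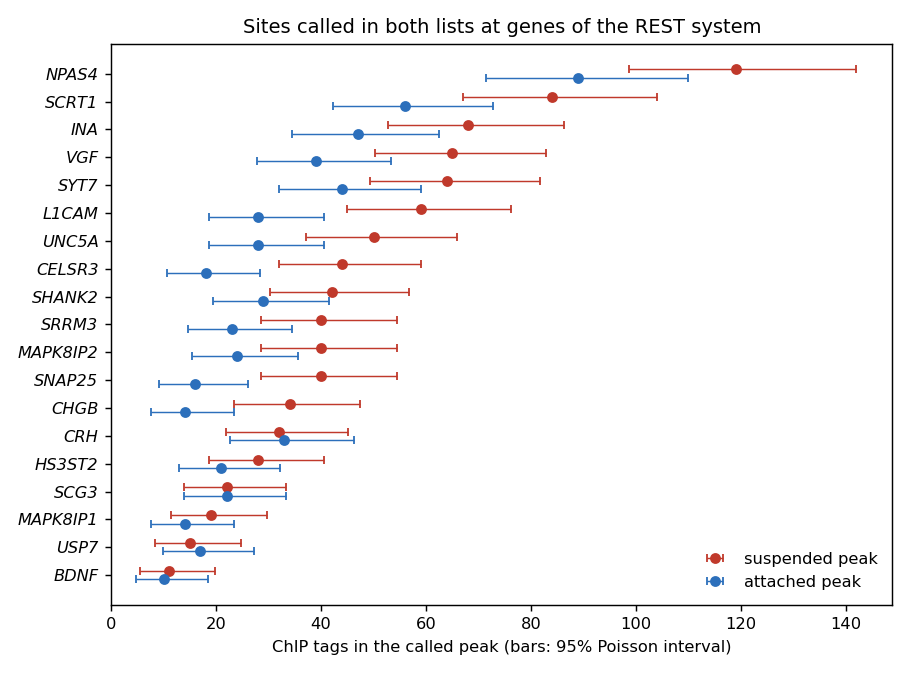
ChIP tags in the called peak at the 19 sites of REST targets and complex genes that were called in both conditions, in suspended (red) and attached (blue) cells, with 95% Poisson intervals. Peak widths differ between conditions. The suspended count is the higher at most sites, while SCG3 has equal counts and CRH and USP7 are slightly higher in attached cells.

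REST's own DNA element was searched in the promoter windows as CAGCACC and GGACAGC, its left and right arms, on both strands. The arms can overlap, since the letters that open the left arm also close the right one. The left arm was in 7.75% and the right arm in 6.03% of all windows. Joined in the usual order with 2 free bases between them (CAGCACCNNGGACAGC, a form chosen after the windows were read), they occurred in 15 of 35116 windows (0.0427%), at 13 genes. None of the 18 windows of REST and its corepressors held the joined form. A suspended peak overlapped 10 of those 15 windows (66.7%), against 6.09% of all windows, and an attached peak overlapped 3 of the 15, against 0.285%. Some of these windows overlap and share a peak, so the 10 rest on 8 suspended peaks and the 3 on 2 attached ones. Counted by gene, 8 of 13 (61.5%) had a suspended peak on a window and 2 of 13 (15.4%) an attached one, against 6.79% and 0.333% of all genes with a window. The 8 genes were BSX, HHATL, HTR5A, LHX3, OGDHL, RPH3A, TTC9B and LOC124903896. Suspended summits lay 0 to 66 bp from the middle of the nearest joined match. FAM163B, GAD2, GRIA2, TMEM179 and UCN held the joined form with no peak on the window. A match describes letters in a window and does not show which protein was there.

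HTR5A and OGDHL are shown because their windows were overlapped by a peak in both conditions, and SCG3 because it is a REST target called in both. Capitals mark CAGCACC as well as GGACAGC and GAGGAA on either strand. RefSeq, GRCh38.p14: chr7:155070074-155070373, plus strand, for HTR5A, chr10:49762274-49762573, minus strand, for OGDHL, and chr15:51681253-51681552, plus strand, for SCG3.
HTR5A: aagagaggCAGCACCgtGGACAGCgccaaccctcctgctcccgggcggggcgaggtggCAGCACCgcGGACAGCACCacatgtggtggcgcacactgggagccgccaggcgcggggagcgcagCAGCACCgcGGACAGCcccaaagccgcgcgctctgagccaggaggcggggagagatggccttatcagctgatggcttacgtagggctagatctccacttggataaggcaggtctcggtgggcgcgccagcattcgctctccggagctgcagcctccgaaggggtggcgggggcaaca
OGDHL: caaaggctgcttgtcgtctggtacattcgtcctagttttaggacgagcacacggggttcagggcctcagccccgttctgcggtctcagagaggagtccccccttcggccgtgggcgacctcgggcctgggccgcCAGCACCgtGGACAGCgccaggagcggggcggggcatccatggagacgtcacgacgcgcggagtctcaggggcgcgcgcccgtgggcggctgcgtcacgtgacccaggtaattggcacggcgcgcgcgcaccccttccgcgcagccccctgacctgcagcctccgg
SCG3: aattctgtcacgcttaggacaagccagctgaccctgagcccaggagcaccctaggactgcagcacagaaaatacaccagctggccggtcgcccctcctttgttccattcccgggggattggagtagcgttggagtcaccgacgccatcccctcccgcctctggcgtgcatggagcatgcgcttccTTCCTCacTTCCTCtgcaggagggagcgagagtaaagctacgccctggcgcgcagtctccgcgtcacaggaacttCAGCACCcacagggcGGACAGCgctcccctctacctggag
HTR5A, a serotonin receptor gene, held 3 joined copies, with 45 tags in the suspended peak and 39 in the attached one. OGDHL, a metabolic enzyme gene, held 1 copy, 0 bp from the suspended summit and 4 bp from the attached one, with 32 tags in suspended and 21 in attached cells. The attached FDR was 100% at OGDHL and 0.0% at HTR5A. SCG3 held both arms in order with 8 bases between them.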

How the data were processed

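SPIB ChIP and input libraries of suspended and attached H1703 cells were compared, with groups taken from the titles. The authors ran MACS 1.4.2 on either ChIP library with the input from the same condition as control, at a p cutoff of 1e-05, keeping 1 tag per position and scaling the larger library to the smaller, per the file headers. The submitters' processing notes name hg38 as the build. The aligner was not given in the sources used here. The deposited tag count per peak is not normalized, the authors' fold enrichment is a ratio of ChIP tags to local background, and their FDR is a percent from calls with ChIP and input exchanged. The authors' score was read as minus 10 times log10 of p, because its column name was lost and no value is under 50.0. Fold, score and FDR were used to describe peaks within a list.

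RefSeq tables of GRCh38.p14 gave gene spans, and starts and strands for 9 of the 10 genes. SciPy 1.17.1, pandas 2.3.3, numpy 2.4.6 and Python 3.11.15 were used to assign summits, and matplotlib 3.10.9 to draw. Shared peaks overlap by at least 1 bp. Poisson, Clopper-Pearson and ratio intervals cover counting error only. The assignment was tested on simulated data. The members, lists and named genes (all members, complex genes at a gene end or of highest fold, and targets with an attached peak or a high fold) were chosen with earlier results of these data known. Whether a peak lies in an exon, intron or UTR was not determined.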

Additional observations from a re-analysis of the deposited data

How the results depend on the processing

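Across 10 counts and 59 comparisons with an alternative setting, 54 stayed within 1.5 times the reported count. For the 4512 suspended peaks of highest score, 4 of the 10 REST and corepressor genes had a suspended peak, with 4 peaks in all (REST, SIN3A, HDAC2 and CTDSP1), against 7. With gene ends widened to 2 kb, 3 of the 10 had a suspended summit near an end (REST, SIN3A and HDAC2), against 1. At an FDR of at most 5% 3 of the 41 neuronal REST targets had an attached peak, against 18. Without the 7 genes named in an earlier account 11 did. For the score, gene-end and FDR settings the share of all protein-coding genes was not computed, so those counts have no such share beside them. The attached count of 0 for REST and its corepressors could not change under the alternatives run. Their flanks ran from 0 to 10 kb, while the nearest attached peak lay 179241 bp away at CTDSP1. The stricter settings only take peaks or genes away. Such counts of 0 are among the 54 comparisons and are no check of stability. The alternatives that leave out EHMT2 or those 7 genes were chosen after seeing the data. No suspended peak at the 10 genes was shared with the attached list, so the planned ratio of tags at shared sites of these genes has no value. Of all 9024 suspended peaks only 212 (2.35%) were shared, so few or none would be looked for among 7. No paired analysis was possible because each group has 1 library. At 9 or 10 tags a peak's Poisson interval spans from about 4.12 to 18.4, so differences among the weaker peaks were not detectable at this depth.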
